A study of Mus musculus with 9 samples.

Results

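The Th17 programme genes are Rora, Il17a, Il17f, Il22, Il23r, Tmem176a and Tmem176b, 7 genes of the interleukin-17-producing helper T cell, and a probe set of the array was taken as theirs when the platform annotation gave it their symbol. Of the 7, 4 had probe sets of their own: Rora with 9, Tmem176a with 3, and Il17a and Tmem176b with 1 each, so that 4 of the 18193 genes named on the array are described here. A further probe set was annotated to both Il22 and the near-identical gene Iltifb and cannot be given to either. Il17f and Il23r had no probe set in the annotation used and were not analysed here. The cells were mouse CD4 T cells of the C57BL/6 background, and their RNA was read on 9 Affymetrix Mouse Genome 430 2.0 arrays, 3 to a group. The pltTGFβ_iTreg and purTGFβ_iTreg groups were induced regulatory T cells. They were grown for 72 hours from sorted spleen CD4+EGFP- cells of Foxp3EGFP reporter mice with IL2 at 100 U/ml and anti-CD28 at 1 µg/ml, in wells that had been coated with 2.5 µg/ml of anti-CD3. TGFβ came from lysates of wild type mouse platelets in pltTGFβ_iTreg and as purified TGFβ1 at 5 ng/ml in purTGFβ_iTreg. Tconv denotes conventional T cells. The labels carry 1 treatment note for every sample, in which TGFβ1 is given to Tconv as well, so how the Tconv cells were grown is not settled by the labels, nor whether the iTreg cells were sorted for the Foxp3 reporter before RNA was taken.

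Th17 cells defend mucosal surfaces and drive tissue inflammation through the cytokines IL-17A, IL-17F and IL-22. In mouse CD4 T cells, TGFβ together with IL-6 induces nuclear receptors, among them RORα, encoded by Rora, which binds ROR elements and promotes expression of the cytokine genes and the IL-23 receptor, whereas TGFβ with IL-2 favours Foxp3 and the regulatory fate. Tmem176a and Tmem176b encode related membrane proteins of the CD20-like (MS4A) superfamily that are abundant in IL-17-producing lymphocytes and in dendritic cells of the mouse.

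The promoters of members with probe sets of their own are shown because Il17a is a known target of ROR proteins and Rora was the member that changed. Tmem176a and Tmem176b start close together on opposite strands and are transcribed away from each other. The sequences are RefSeq's for build GRCm38.p6, run 5′ to 3′ from 250 bases before to 50 bases after the start site, and lie on the plus strand. Capitals mark the ROR element core AGGTCA and the AP-1 motif TGANTCA, on either strand, in Il17a (chr1:20730655-20730954), the core GCGTG bound by the aryl hydrocarbon receptor, on either strand, in Rora (chr9:68653536-68653835), and the 208 bases shared with a Tmem176b window (chr6:48841325-48841624, minus strand) in Tmem176a (chr6:48841233-48841532).
Il17a: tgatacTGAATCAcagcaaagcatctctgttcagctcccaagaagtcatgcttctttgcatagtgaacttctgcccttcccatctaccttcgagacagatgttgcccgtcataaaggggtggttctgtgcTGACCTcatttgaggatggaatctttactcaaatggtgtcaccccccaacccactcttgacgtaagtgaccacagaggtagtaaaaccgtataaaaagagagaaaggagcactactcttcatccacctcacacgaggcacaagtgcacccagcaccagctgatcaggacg
Rora: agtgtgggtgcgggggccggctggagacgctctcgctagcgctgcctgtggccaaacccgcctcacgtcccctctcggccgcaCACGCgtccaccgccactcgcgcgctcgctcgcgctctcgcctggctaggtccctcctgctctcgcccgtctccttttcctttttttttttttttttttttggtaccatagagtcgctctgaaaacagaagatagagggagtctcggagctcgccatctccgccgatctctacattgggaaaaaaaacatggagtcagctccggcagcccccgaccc
Tmem176a: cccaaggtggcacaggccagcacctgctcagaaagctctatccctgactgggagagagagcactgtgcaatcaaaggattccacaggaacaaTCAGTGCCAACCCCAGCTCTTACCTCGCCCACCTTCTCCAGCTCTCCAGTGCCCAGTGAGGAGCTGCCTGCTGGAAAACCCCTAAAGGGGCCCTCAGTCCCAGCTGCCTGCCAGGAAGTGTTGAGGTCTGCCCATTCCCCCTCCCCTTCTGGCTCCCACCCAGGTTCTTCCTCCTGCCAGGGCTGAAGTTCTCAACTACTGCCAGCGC

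The Il17a window held 1 ROR core, 120 bases before the start site, and 1 AP-1 motif, 244 bases before it. Of the 32851 promoters of that length in the table, 16.3% held the ROR core and 7.81% the AP-1 motif. The Rora window held neither, and had 1 GCGTG core, 167 bases before its start site, a motif found in 32.4% of the promoters. None of these letters, nor the STAT motif TTCNNNGAA (8.3% of promoters) or the SMAD palindrome GTCTAGAC (0.213%), was found in either Tmem176a window or in the 3 Tmem176b windows. In RefSeq's order of protein-coding genes Tmem176a and Tmem176b are neighbours on chromosome 6, Il17a and Il17f on chromosome 1, and Il22 and Iltifb on chromosome 10, while Rora lies on chromosome 9.

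Replicate arrays correlated at 0.994 to 0.998 over all probe sets, and iTreg arrays with Tconv arrays at 0.956 to 0.970. The arrays differed by the sex of the animals. Xist, transcribed in female cells, averaged 3.94 ± 0.05 log2 units in pltTGFβ_iTreg, 3.61 ± 0.21 in purTGFβ_iTreg and 10.81 ± 0.16 in Tconv (SD, n = 3 each), and Y-linked Eif2s3y averaged 8.95 ± 0.07 in pltTGFβ_iTreg, 9.01 ± 0.18 in purTGFβ_iTreg and 2.70 ± 0.11 in Tconv. Donor sex and iTreg culture therefore cannot be told apart in either comparison with Tconv. The T cell genes Cd3d, Cd3e, Cd3g, Cd4, Cd5 and Cd28 had a mean log2 level of 10.22 to 10.28 per array in pltTGFβ_iTreg, 10.10 to 10.18 in purTGFβ_iTreg and 10.35 to 10.56 in Tconv. Among them Cd4 fell by 0.62 in pltTGFβ_iTreg and by 0.72 in purTGFβ_iTreg, Cd5 fell by 0.59 in pltTGFβ_iTreg and by 0.84 in purTGFβ_iTreg, and Cd28 rose by 0.78 in pltTGFβ_iTreg. Foxp3, the factor that defines regulatory T cells, averaged 3.86 ± 0.04 in pltTGFβ_iTreg, 3.77 ± 0.08 in purTGFβ_iTreg and 3.79 ± 0.12 in Tconv and passed the test in no comparison. The regulatory label therefore has no support from this probe set. In bulk RNA, fewer cells that express a gene cannot be told apart from less of its RNA per cell, and the table holds no detection calls, so whether a probe set stood above background was not settled.

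The comparison of purTGFβ_iTreg with Tconv asked how cells cultured with the purified cytokine differ from conventional T cells. Rora rose and the other 3 genes did not pass, where a call needed an absolute log2 change above 0.5 and an adjusted p under 0.1 (limma, Benjamini-Hochberg over all 45037 probe sets). That is 1 of 4 genes, and 29.3% of all 18193 genes were called in this comparison, so the count is near the background of the array. The comparison of pltTGFβ_iTreg with Tconv called 0 of the 4 genes, against a background of 28.5%. Without moderation of the variances 0 were called as well. With no fold cutoff 2 of the 4 (Rora and Tmem176a) passed by adjusted p in the limma fit, as did 60.4% of all genes. Between the iTreg cultures, pltTGFβ_iTreg against purTGFβ_iTreg, 1 of 4 was called, again Rora, which was lower with platelet lysate, against a background of 4.11%.

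**Figure D1:**
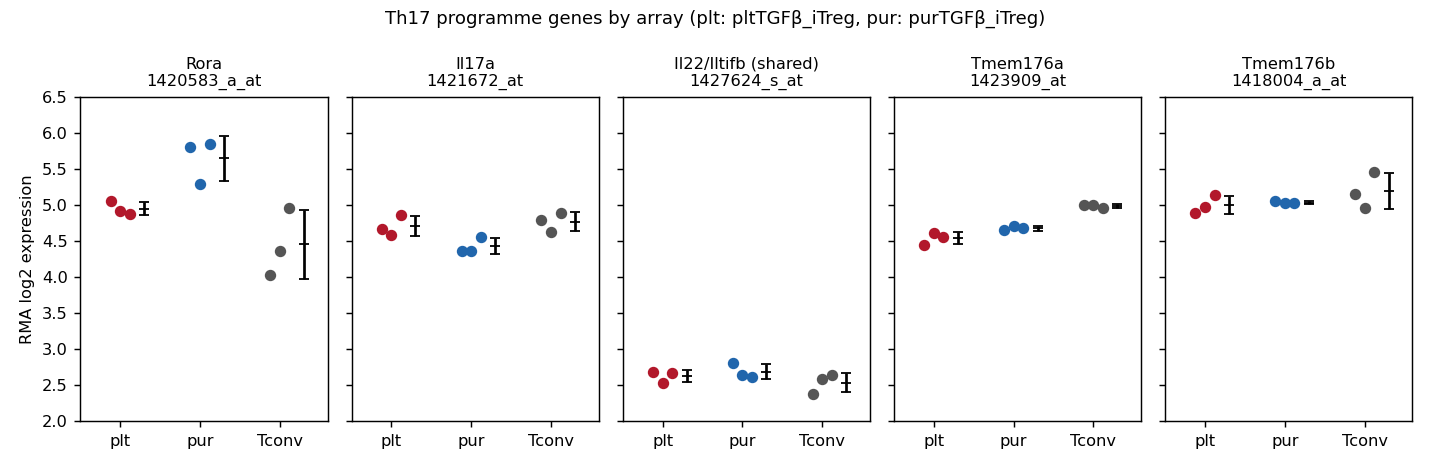
RMA log2 expression of the main probe set of each Th17 programme gene, and of the probe set shared by Il22 and Iltifb, on each of the 9 arrays, with the mean and SD of 3 arrays to the right of the points. Rora is highest on the 3 purTGFβ_iTreg arrays (5.29 to 5.85), while the other panels span less than 1 log2 unit over all arrays.

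RORα, the product of Rora, promotes the Th17 fate and also acts in innate lymphoid cells and in tissue regulatory T cells of the mouse. On its main probe set, the one with the highest mean (1420583_a_at), Rora read 5.06, 4.91 and 4.88 log2 units in pltTGFβ_iTreg, 5.80, 5.29 and 5.85 in purTGFβ_iTreg and 4.02, 4.37 and 4.96 in Tconv. All purTGFβ_iTreg arrays stood above all arrays of the other groups, whereas the highest Tconv array lay among the pltTGFβ_iTreg arrays. Here and below, overlap only describes the arrays shown. The share of all genes whose groups do not overlap is not reported here. The SD was 0.10 in pltTGFβ_iTreg, 0.31 in purTGFβ_iTreg and 0.48 in Tconv, the most spread group. In purTGFβ_iTreg Rora rose 2.29-fold over Tconv (log2 change 1.20 ± 0.21, SE, adjusted p = 6.23e-04, limma, 95% interval 0.74 to 1.66).

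In pltTGFβ_iTreg the log2 difference of Rora from Tconv was 0.499 ± 0.21 (SE, limma adjusted p = 0.0728), just below the fold that was called, with an interval of 0.04 to 0.96. Without Tconv replicate 3, the highest of that group, it was 0.75 and called (limma adjusted p = 0.00497). Directly compared, it was called in pltTGFβ_iTreg, 1.62-fold lower than in purTGFβ_iTreg (log2 change -0.70 ± 0.21, SE, limma adjusted p = 0.0921, interval -1.16 to -0.24). This call was lost without any 1 of pltTGFβ_iTreg replicates 1, 2 and 3 and purTGFβ_iTreg replicates 1 and 3, with log2 changes of -0.75, -0.68, -0.66, -0.62 and -0.60. Rora thus ranked purTGFβ_iTreg, pltTGFβ_iTreg and Tconv by mean, and its lower neighbours in that order, pltTGFβ_iTreg and Tconv, overlapped.

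Another Rora probe set (1424034_at) gave the same order of means with a smaller standard error. It read 4.73, 4.36 and 4.73 in pltTGFβ_iTreg, 5.79, 5.35 and 5.66 in purTGFβ_iTreg and 4.04, 4.09 and 4.29 in Tconv. None of the groups overlapped on it. The rise in purTGFβ_iTreg over Tconv was 2.75-fold (log2 change 1.46 ± 0.14, SE, limma adjusted p = 3.84e-06), and pltTGFβ_iTreg was 1.99-fold below purTGFβ_iTreg (log2 change -0.99 ± 0.14, limma adjusted p = 0.00108). That second difference stayed called without each array in turn, at -1.11 to -0.86. Against Tconv, pltTGFβ_iTreg differed by 0.47 ± 0.14 (limma adjusted p = 0.0150), under the fold that was called.

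**Figure D2:**
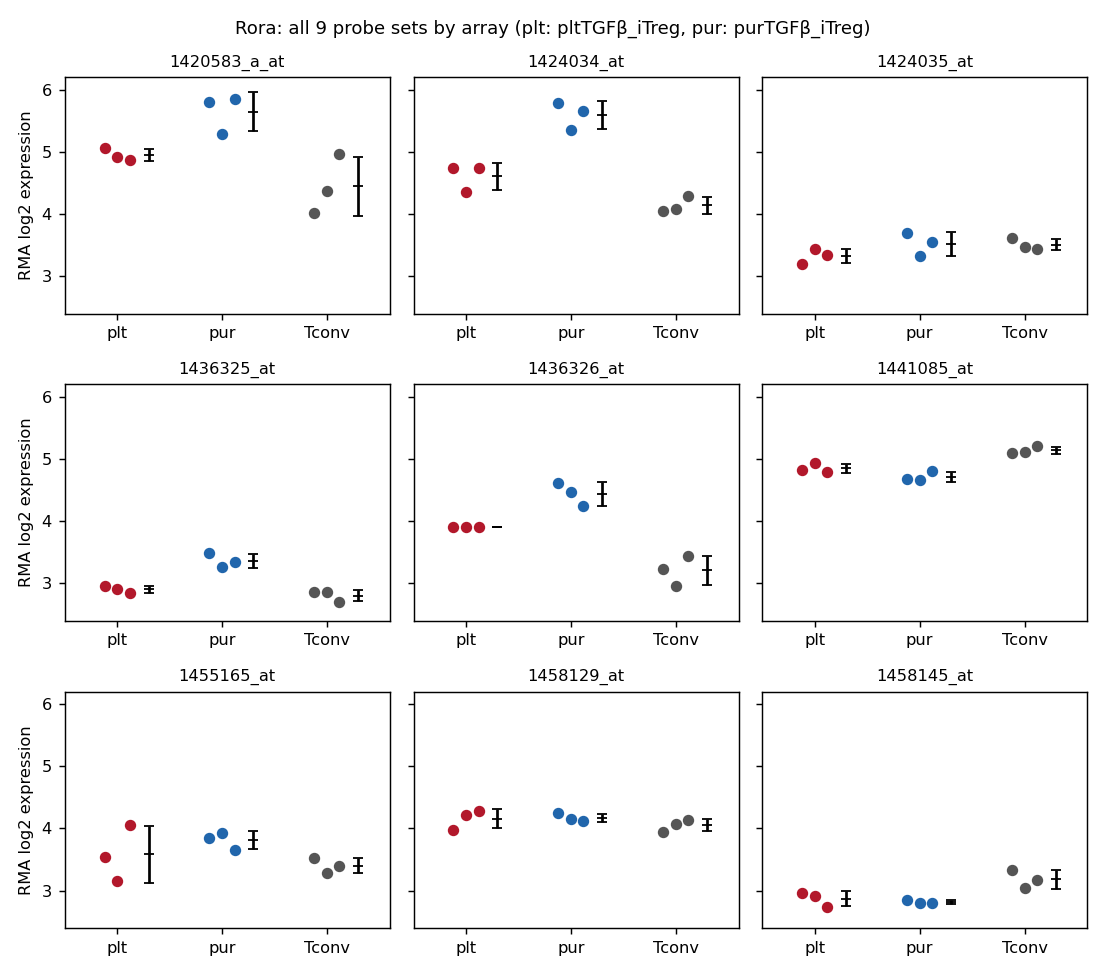
RMA log2 expression of all 9 Rora probe sets on each array, with the mean and SD of 3 arrays to the right of the points. Probe sets 1420583_a_at, 1424034_at, 1436325_at and 1436326_at are highest in purTGFβ_iTreg, and 1441085_at is highest in Tconv (5.10 to 5.21).

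Probe set 1436326_at read 3.90 on each pltTGFβ_iTreg array, 4.61, 4.47 and 4.24 in purTGFβ_iTreg and 3.23, 2.96 and 3.44 in Tconv. The groups were again separate, and here the rise over Tconv was called in both iTreg groups, at 0.69 ± 0.13 in pltTGFβ_iTreg and 1.23 ± 0.13 in purTGFβ_iTreg (SE, limma adjusted p = 8.11e-04 and 7.92e-06). The deposited value was identical on the 3 pltTGFβ_iTreg arrays, as it was for 0.759% of all probe sets, so their SD of 0 is no measure of spread. On 1436325_at Rora read 2.96, 2.91 and 2.85 in pltTGFβ_iTreg, 3.49, 3.26 and 3.34 in purTGFβ_iTreg and 2.86, 2.86 and 2.70 in Tconv, and it rose by 0.56 ± 0.09 in purTGFβ_iTreg over Tconv (limma adjusted p = 2.67e-04).

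Not every Rora probe set moved this way. In purTGFβ_iTreg against Tconv 4 of 9 were called higher and none lower (15.5% of all probe sets were called higher). In pltTGFβ_iTreg against Tconv 1 of 9 was called higher (background 15%), and in pltTGFβ_iTreg against purTGFβ_iTreg 3 of 9 were called lower (background 2.09%). The probe sets share a gene and are not replicates of it. An exception by direction was 1441085_at, the probe set with the next highest mean (4.90) after the main one. It read 4.83, 4.93 and 4.79 in pltTGFβ_iTreg, 4.67, 4.67 and 4.81 in purTGFβ_iTreg and 5.10, 5.12 and 5.21 in Tconv. Its log2 differences from Tconv were -0.29 ± 0.08 in pltTGFβ_iTreg and -0.42 ± 0.08 in purTGFβ_iTreg, both under the fold that was called (limma adjusted p = 0.0118 and 0.00112). Over the 9 arrays it correlated at -0.70 with the main probe set and at -0.85 with 1424034_at, which correlated with each other at 0.93. Dim 1458145_at also stood below Tconv, at -0.31 in pltTGFβ_iTreg and -0.36 in purTGFβ_iTreg, and 1424035_at, 1455165_at and 1458129_at were called in no comparison. Over all 9 probe sets the mean log2 change was 0.14 in pltTGFβ_iTreg against Tconv, 0.47 in purTGFβ_iTreg against Tconv and -0.33 in pltTGFβ_iTreg against purTGFβ_iTreg.

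**Figure D3:**
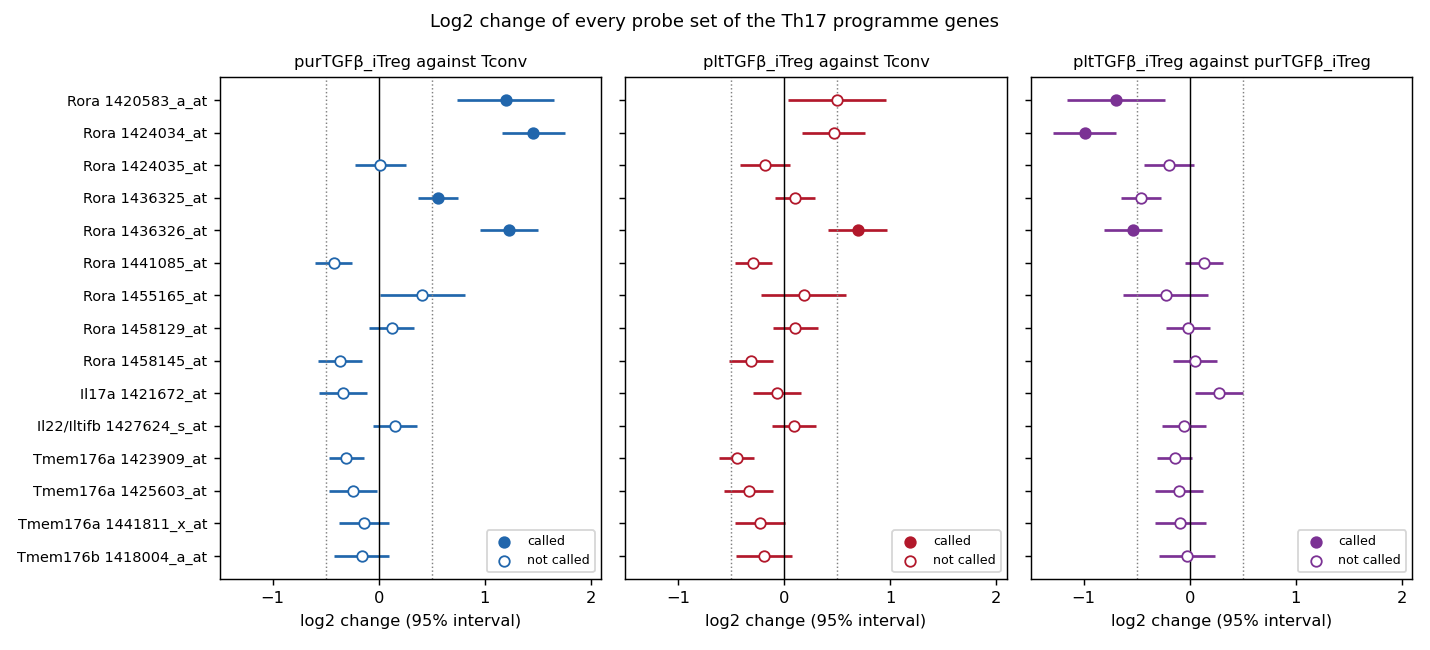
Log2 change with its 95% interval (limma) of every probe set of the Th17 programme genes in the 3 comparisons, with dotted lines at the called fold of 0.5 and filled points where a probe set was called. In purTGFβ_iTreg against Tconv the 4 filled points are all Rora, from 0.56 to 1.46, and no probe set of Il17a, Tmem176a or Tmem176b is filled in any panel.

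The genes most like Rora over the 9 arrays were Camk1d, a calmodulin-dependent kinase gene (Pearson r = 0.97), the cytoskeletal gene Septin9 (0.96) and Bbx, which encodes an HMG-box protein (0.95). These came from 3719 genes that spanned at least 1 log2 unit, of which 52 had r above 0.9, and the arrays fall in 3 groups, so the values describe a shared order of groups. Camk1d averaged 5.62 ± 0.07 in pltTGFβ_iTreg, 6.01 ± 0.11 in purTGFβ_iTreg and 5.17 ± 0.22 in Tconv. Like Rora, all 3 had Tconv replicate 1 as the lowest array and Tconv replicate 3 as the highest of the Tconv arrays.

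Il17a encodes IL-17A, the defining cytokine of Th17 cells. It read 4.66, 4.59 and 4.86 in pltTGFβ_iTreg, 4.36, 4.36 and 4.56 in purTGFβ_iTreg and 4.79, 4.63 and 4.89 in Tconv. The purTGFβ_iTreg arrays were the lowest and did not overlap the other groups, while pltTGFβ_iTreg and Tconv overlapped. Il17a was not called in any comparison. Its log2 difference from Tconv was -0.34 ± 0.10 in purTGFβ_iTreg (SE, limma adjusted p = 0.0181, interval -0.57 to -0.11) and -0.07 ± 0.10 in pltTGFβ_iTreg (adjusted p = 0.621, interval -0.29 to 0.16), and between the iTreg groups it was 0.27 ± 0.10 (adjusted p = 0.205, interval 0.05 to 0.50). These intervals leave out a rise of Il17a above 0.5 over Tconv in either iTreg group on this scale. Rora and Il17a stood in opposite directions from Tconv in purTGFβ_iTreg. The Il17a difference was not called, and all genes had a median log2 change of -0.17 there. The difference between the genes was not tested.

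IL-22, the epithelial repair cytokine, is measured only through the probe set that Il22 shares with Iltifb. It read 2.68, 2.53 and 2.66 in pltTGFβ_iTreg, 2.81, 2.63 and 2.61 in purTGFβ_iTreg and 2.38, 2.58 and 2.63 in Tconv. All groups overlapped. The log2 differences were 0.09 in pltTGFβ_iTreg against Tconv, 0.15 in purTGFβ_iTreg against Tconv and -0.06 in pltTGFβ_iTreg against purTGFβ_iTreg, with limma adjusted p values of 0.443, 0.205 and 0.865.

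Tmem176a, one of the pair of membrane protein genes, read 4.44, 4.60 and 4.56 in pltTGFβ_iTreg, 4.65, 4.71 and 4.67 in purTGFβ_iTreg and 5.00, 4.99 and 4.95 in Tconv on its main probe set (1423909_at). Every iTreg array was below every Tconv array, and the iTreg groups did not overlap each other, a pattern that was not set against all genes. Its log2 difference from Tconv was -0.45 ± 0.08 in pltTGFβ_iTreg (SE, limma adjusted p = 5.04e-04) and -0.31 ± 0.08 in purTGFβ_iTreg (adjusted p = 0.00623), both short of the fold that was called. By adjusted p alone 60.4% of all genes passed in pltTGFβ_iTreg and 63.4% in purTGFβ_iTreg, so a small difference of this kind was common on the array. A second probe set (1425603_at) gave -0.34 in pltTGFβ_iTreg and -0.24 in purTGFβ_iTreg, and 1441811_x_at, of a kind that can cross-hybridise, gave -0.23 in pltTGFβ_iTreg and -0.14 in purTGFβ_iTreg. Between the iTreg groups Tmem176a differed by -0.14 ± 0.08 (limma adjusted p = 0.435).

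Tmem176b read 4.89, 4.97 and 5.14 in pltTGFβ_iTreg, 5.05, 5.02 and 5.02 in purTGFβ_iTreg and 5.15, 4.96 and 5.46 in Tconv. All groups overlapped. Its log2 differences from Tconv were -0.19 ± 0.12 in pltTGFβ_iTreg and -0.16 ± 0.12 in purTGFβ_iTreg (SE, limma adjusted p = 0.217 and 0.287). Tmem176b correlated with the main Tmem176a probe set at 0.50 over the 9 arrays. Dendritic cells and macrophages also express both genes. Of 11 measured myeloid and dendritic markers 0 rose and 2 fell in each comparison with Tconv, H2-Ab1 with Tyrobp in pltTGFβ_iTreg and H2-Ab1 with Cd74 in purTGFβ_iTreg. Without Tconv replicate 2 the falls numbered 4 in each comparison, and without pltTGFβ_iTreg replicate 2 they numbered 5 in pltTGFβ_iTreg. The mean log2 level of the 11 markers per array was 4.22 to 4.32 in pltTGFβ_iTreg, 4.08 to 4.27 in purTGFβ_iTreg and 4.61 to 4.74 in Tconv. H2-Ab1, which encodes an MHC class II chain, fell by 1.65 in pltTGFβ_iTreg and by 1.66 in purTGFβ_iTreg on the log2 scale. Of 6 measured markers of γδ, innate-like and ILC3 lymphocytes 0 fell in pltTGFβ_iTreg and 1, Cd163l1, fell in purTGFβ_iTreg, and they had a mean level of 4.40 to 4.47 in pltTGFβ_iTreg, 4.40 to 4.55 in purTGFβ_iTreg and 4.66 to 4.89 in Tconv. Over all genes 14.7% fell in pltTGFβ_iTreg and 14.9% in purTGFβ_iTreg, so the marker counts from all 9 arrays are near that share. The myeloid and dendritic markers had a median log2 change of -0.37 in pltTGFβ_iTreg and -0.33 in purTGFβ_iTreg. For all genes it was -0.16 and -0.17. The part of either marker list in the Tmem176a difference was not tested.

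Around the members, transcription factors that promote or shape the Th17 fate moved both ways. Of 12 measured, 4 rose and 4 fell in purTGFβ_iTreg against Tconv, and 4 rose and 3 fell in pltTGFβ_iTreg. Their median log2 change was 0.24 in pltTGFβ_iTreg and 0.38 in purTGFβ_iTreg, against -0.16 and -0.17 for all genes in the same comparisons. Over all genes 14.5% rose and 14.9% fell in purTGFβ_iTreg, 13.9% rose and 14.7% fell in pltTGFβ_iTreg, and 1.54% were higher and 2.57% lower in pltTGFβ_iTreg than in purTGFβ_iTreg. Ahr, the ligand-activated receptor needed for IL-22, averaged 7.78 ± 0.03 in pltTGFβ_iTreg, 9.05 ± 0.15 in purTGFβ_iTreg and 3.49 ± 0.11 in Tconv, although its other probe set gave log2 changes of only 0.04 in pltTGFβ_iTreg and 0.30 in purTGFβ_iTreg. Maf, which supports IL-10 expression, averaged 8.78 ± 0.04 in pltTGFβ_iTreg, 10.14 ± 0.10 in purTGFβ_iTreg and 3.66 ± 0.11 in Tconv. Both were lower in pltTGFβ_iTreg than in purTGFβ_iTreg, as Rora was, with log2 changes of -1.27 and -1.36 (limma adjusted p = 9.91e-06 and 2.65e-06), and no other of the 12 was called there on its main probe set. Other probe sets were called higher in pltTGFβ_iTreg for Fosl2 (1.17 on 1 probe set) and Nfkbiz (0.74 and 0.56 on 2). Runx1, a factor that supports Il17a expression, rose by 1.81 in pltTGFβ_iTreg and 2.03 in purTGFβ_iTreg, but 3 of its 6 probe sets, at -0.17 to 0.03, were not called. Hif1a, which links hypoxia to the Th17 fate, rose by 1.39 in pltTGFβ_iTreg and 1.22 in purTGFβ_iTreg.

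Batf, an AP-1 family pioneer factor of the Th17 fate, averaged 8.58 ± 0.04 in pltTGFβ_iTreg, 8.09 ± 0.06 in purTGFβ_iTreg and 9.89 ± 0.13 in Tconv. It fell by 1.31 in pltTGFβ_iTreg and by 1.80 in purTGFβ_iTreg on the log2 scale. Junb, its partner, fell by 1.19 in pltTGFβ_iTreg and by 1.49 in purTGFβ_iTreg. Fosl2, also of the AP-1 family, fell by 0.65 in purTGFβ_iTreg and was not called in pltTGFβ_iTreg, at -0.497, on its main probe set. The other Fosl2 probe set was called lower in both, at -0.63 in pltTGFβ_iTreg and -1.80 in purTGFβ_iTreg. Stat3, which carries the IL-6 and IL-23 signal, was not called in any comparison on its main probe set. It stood there at 0.02 in pltTGFβ_iTreg and 0.47 in purTGFβ_iTreg against Tconv. Another Stat3 probe set was called higher in purTGFβ_iTreg against Tconv, at 0.63, and stood at 0.48 in pltTGFβ_iTreg without a call. The remaining Stat3 probe sets were not called, at 0.03 and 0.42 in purTGFβ_iTreg and -0.06 and 0.03 in pltTGFβ_iTreg.

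**Figure D4:**
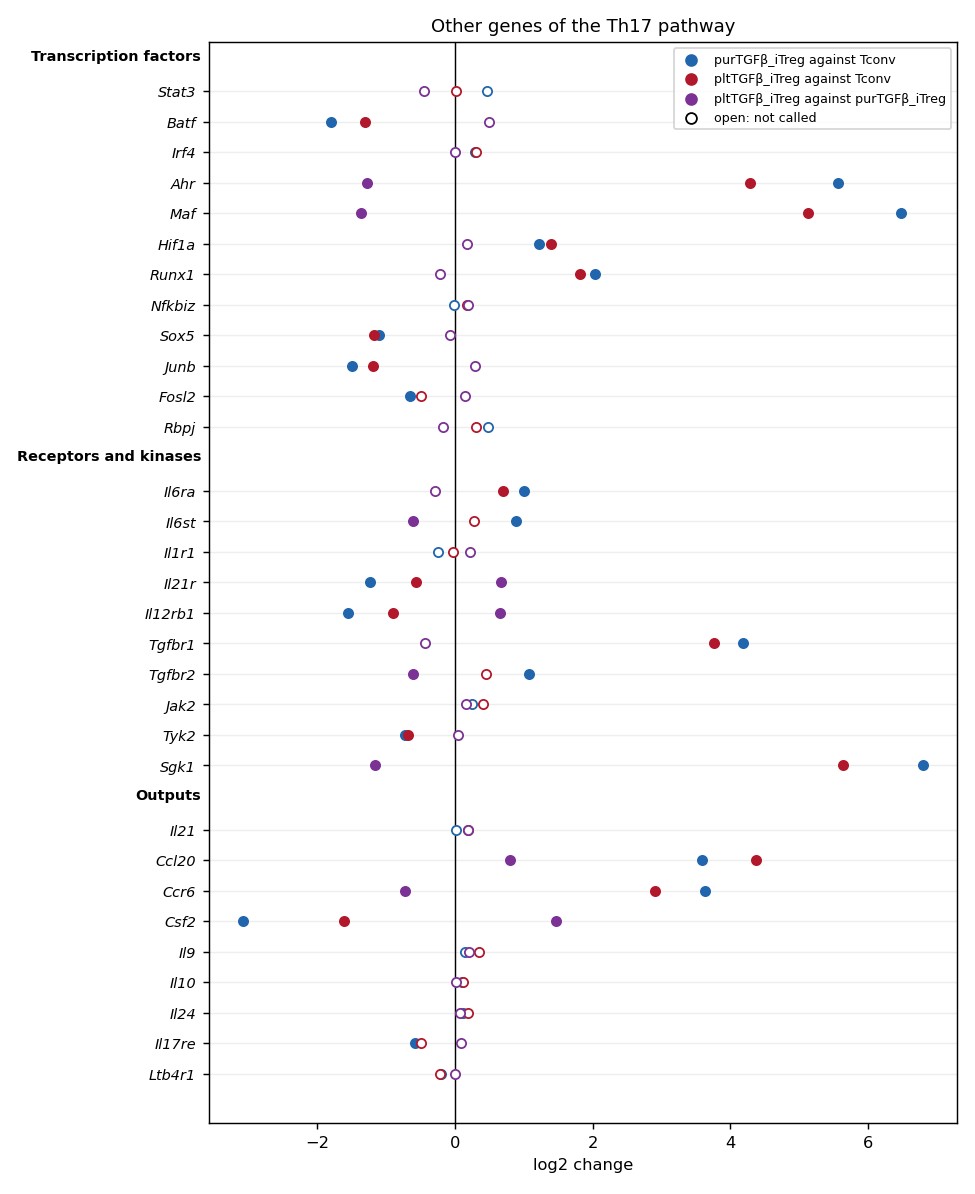
Log2 change (limma) of the measured Th17 transcription factors, receptors and kinases, and outputs in the 3 comparisons, filled where called. Against Tconv, Sgk1 and Maf lie farthest right (5.12 to 6.81) and Csf2 farthest left, and Il21, Il9, Il10 and Il24 have open points in each comparison.

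Among 10 receptors and kinases that feed the programme, 5 rose and 3 fell in purTGFβ_iTreg against Tconv, and 3 rose and 3 fell in pltTGFβ_iTreg. Of all genes, 14.5% rose and 14.9% fell in purTGFβ_iTreg, and 13.9% rose and 14.7% fell in pltTGFβ_iTreg. Sgk1, a kinase that stabilises IL-23 receptor expression in mouse Th17 cells, averaged 10.26 ± 0.10 in pltTGFβ_iTreg, 11.43 ± 0.06 in purTGFβ_iTreg and 4.62 ± 0.34 in Tconv. Tgfbr1, the type I TGFβ receptor gene, averaged 10.26 ± 0.06 in pltTGFβ_iTreg, 10.69 ± 0.08 in purTGFβ_iTreg and 6.51 ± 0.17 in Tconv. Il12rb1, which encodes a chain of the IL-12 and IL-23 receptors, fell by 0.90 in pltTGFβ_iTreg and by 1.56 in purTGFβ_iTreg, and Il21r, the IL-21 receptor gene, fell by 0.56 in pltTGFβ_iTreg and by 1.23 in purTGFβ_iTreg. Between the iTreg groups 3 were lower in pltTGFβ_iTreg, Tgfbr2, Sgk1 and Il6st, with log2 changes of -0.61, -1.17 and -0.61. The other Tgfbr2 probe sets, at -0.31 and 0.07, were not called. The 2 that were higher were Il21r and Il12rb1, both by 0.66. Of all genes, 2.57% were lower and 1.54% were higher in this comparison.

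Ccr6, the chemokine receptor of Th17 cells, averaged 7.59 ± 0.04 in pltTGFβ_iTreg, 8.31 ± 0.07 in purTGFβ_iTreg and 4.68 ± 0.24 in Tconv. Its ligand gene Ccl20 averaged 9.07 ± 0.03 in pltTGFβ_iTreg, 8.27 ± 0.05 in purTGFβ_iTreg and 4.69 ± 0.46 in Tconv. Receptor and ligand differed in opposite directions between the iTreg groups. In pltTGFβ_iTreg against purTGFβ_iTreg the log2 change was -0.73 at Ccr6 and 0.79 at Ccl20 (limma adjusted p = 0.00219 and 0.0200). Csf2, which encodes GM-CSF, averaged 5.54 ± 0.05 in pltTGFβ_iTreg, 4.07 ± 0.19 in purTGFβ_iTreg and 7.15 ± 0.05 in Tconv and fell in both iTreg groups. Il21, the cytokine by which Th17 cells amplify themselves, averaged 2.97 ± 0.15 in pltTGFβ_iTreg, 2.78 ± 0.09 in purTGFβ_iTreg and 2.77 ± 0.11 in Tconv and was called in no comparison. Of 9 outputs, 2 rose and 2 fell in purTGFβ_iTreg and 2 rose and 1 fell in pltTGFβ_iTreg. The falls numbered 1 in purTGFβ_iTreg without purTGFβ_iTreg replicate 1, and 2 in pltTGFβ_iTreg without Tconv replicate 2 or pltTGFβ_iTreg replicate 2 or 3. The shares of all genes were 14.5% higher and 14.9% lower in purTGFβ_iTreg, and 13.9% higher and 14.7% lower in pltTGFβ_iTreg.

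Of 8 measured ligands and receptors of the wider IL-17 family, 1 rose and 2 fell in purTGFβ_iTreg against Tconv, and 0 rose and 1 fell in pltTGFβ_iTreg. The fall in pltTGFβ_iTreg was Il17rc, by 0.51. The falls in pltTGFβ_iTreg numbered 0 without Tconv replicate 1 and 3 without Tconv replicate 2 or pltTGFβ_iTreg replicate 2, and those in purTGFβ_iTreg numbered 1 without Tconv replicate 1 or purTGFβ_iTreg replicate 1. Of all genes, 14.5% rose and 14.9% fell in purTGFβ_iTreg, and 13.9% rose and 14.7% fell in pltTGFβ_iTreg, so these small counts do not set the family apart. The rise in purTGFβ_iTreg was Il17ra, the receptor chain through which IL-17A signals, at 0.55, and the falls were Il17re and Il17rc, by 0.58 each in purTGFβ_iTreg. The Il17ra call was lost without Tconv replicate 1 and under quantile normalization, but its other probe set gave 0.89 in purTGFβ_iTreg against Tconv. The other probe sets of the genes that fell were not called. In purTGFβ_iTreg they gave -0.50 and -0.11 for Il17re and -0.22 for Il17rc, and in pltTGFβ_iTreg -0.34 for Il17rc.

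Of 11 measured factors that hold the Th17 fate back, 2 rose and 5 fell in purTGFβ_iTreg against Tconv and 3 rose and 5 fell in pltTGFβ_iTreg, where 1 rose without Tconv replicate 3. Their median log2 change was -0.44 in both, against -0.16 for all genes in pltTGFβ_iTreg and -0.17 in purTGFβ_iTreg. The shares of all genes were 14.5% higher and 14.9% lower in purTGFβ_iTreg, and 13.9% higher and 14.7% lower in pltTGFβ_iTreg. Gfi1, a repressor of IL-17 genes, averaged 8.82 ± 0.15 in pltTGFβ_iTreg, 7.93 ± 0.03 in purTGFβ_iTreg and 9.74 ± 0.05 in Tconv. Gata3 and Tbx21, the master regulators of the Th2 and Th1 fates, fell by 2.14 and by 0.80 in pltTGFβ_iTreg and by 2.56 and by 1.15 in purTGFβ_iTreg. Il2, whose product restrains Th17 cells through STAT5, averaged 8.30 ± 0.11 in pltTGFβ_iTreg, 4.14 ± 0.37 in purTGFβ_iTreg and 7.77 ± 0.22 in Tconv. Il2 was thus 4.16 log2 units higher in pltTGFβ_iTreg than in purTGFβ_iTreg (limma adjusted p = 1.31e-07), where Rora was lower. Socs3, the brake on STAT3, rose by 1.06 in pltTGFβ_iTreg and by 0.65 in purTGFβ_iTreg.

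**Figure D5:**
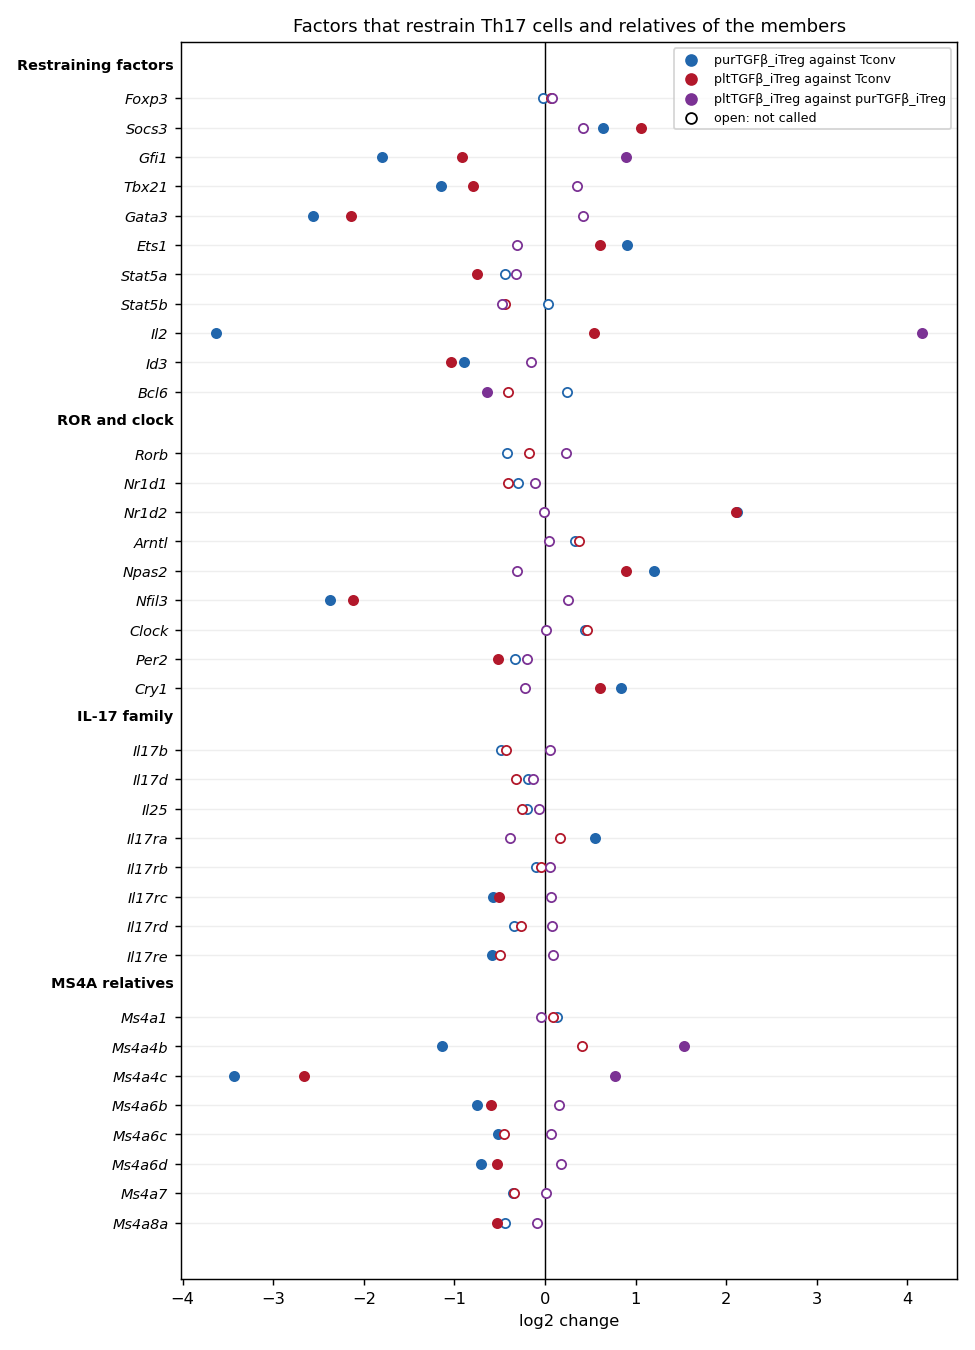
Log2 change (limma) of factors that restrain Th17 cells, of ROR relatives and clock genes, of the IL-17 family and of MS4A genes in the 3 comparisons, filled where called. Il2 has the widest split between the iTreg groups (4.16), and no MS4A gene is filled to the right of 0 against Tconv.

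ROR elements are also read by the circadian clock, in which RORα activates and the REV-ERB proteins repress. Of 9 measured genes of this kind, 3 rose and 1 fell in purTGFβ_iTreg against Tconv, and 3 rose and 2 fell in pltTGFβ_iTreg. The falls numbered 2 in purTGFβ_iTreg without Tconv or purTGFβ_iTreg replicate 2, and 1 in pltTGFβ_iTreg without Tconv replicate 3 or pltTGFβ_iTreg replicate 2. Of all genes, 14.5% rose and 14.9% fell in purTGFβ_iTreg, and 13.9% rose and 14.7% fell in pltTGFβ_iTreg. Nr1d2, which encodes REV-ERBβ, averaged 7.21 ± 0.16 in pltTGFβ_iTreg, 7.22 ± 0.22 in purTGFβ_iTreg and 5.10 ± 0.07 in Tconv, although a second probe set gave log2 changes of 0.12 in pltTGFβ_iTreg and 0.20 in purTGFβ_iTreg. Nfil3, a clock output that restrains Th17 development in the mouse, fell by 2.12 in pltTGFβ_iTreg and by 2.37 in purTGFβ_iTreg. Arntl, a direct RORα target of the core clock, was not called, at 0.37 in pltTGFβ_iTreg and 0.33 in purTGFβ_iTreg. The gene Clock was not called on its main probe set, at 0.46 in pltTGFβ_iTreg and 0.45 in purTGFβ_iTreg. Another Clock probe set was called higher, at 2.57 in pltTGFβ_iTreg and 2.36 in purTGFβ_iTreg (limma adjusted p = 1.84e-06 and 3.41e-06). The remaining Clock probe sets were not called, at 0.11 and 0.31 in pltTGFβ_iTreg and -0.06 and 0.49 in purTGFβ_iTreg.

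The MS4A genes, relatives of the Tmem176 pair, had 0 rises and 5 falls among 8 in purTGFβ_iTreg against Tconv and 0 rises and 4 falls in pltTGFβ_iTreg. Their median log2 changes were -0.61 in purTGFβ_iTreg and -0.49 in pltTGFβ_iTreg. For all genes the medians were -0.17 and -0.16, and 14.9% and 14.7% fell. Without the dimmest 40% of probe sets 3 fell in purTGFβ_iTreg and 1 in pltTGFβ_iTreg. Ms4a4b, a T cell member that modulates activation, averaged 9.19 ± 0.05 in pltTGFβ_iTreg, 7.65 ± 0.19 in purTGFβ_iTreg and 8.78 ± 0.09 in Tconv. It was higher in pltTGFβ_iTreg than in purTGFβ_iTreg by 1.54 (limma adjusted p = 3.31e-06). Ms4a4c averaged 3.22 ± 0.13 in pltTGFβ_iTreg, 2.45 ± 0.11 in purTGFβ_iTreg and 5.89 ± 0.28 in Tconv and fell in both iTreg groups. Ms4a6b fell by 0.60 in pltTGFβ_iTreg and by 0.75 in purTGFβ_iTreg on its main probe set, while its dimmer one stood above Tconv by 0.48 in pltTGFβ_iTreg and 0.61 in purTGFβ_iTreg.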

How the data were processed

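Total RNA of 9 cultures was hybridised to Affymetrix arrays, 3 per group, which the series' design text calls biological replicates. The authors deposited log2 values that, per the labels' design text, came from Robust Multichip Analysis in Expression Console. This method corrects background, quantile normalizes and gives 1 value per probe set, so small folds of dim genes are understated. The number of arrays limits precision. The authors tested with ANOVA in Partek Genomics Suite 6.6, with a false discovery rate under 10% and a 1.4-fold difference.

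Of 45101 probe sets, 64 controls were left out and 45037 tested in 1 limma model (limma 3.58.1, R 4.3.3) over all 9 arrays, two-sided, with the authors' cutoffs. With 3 arrays on each side an exact test stops at p = 0.1 and was not used. Platform annotation gave 1 symbol to 34945 probe sets, several to 932 and none listed to 9160. A gene's main probe set had the highest mean, with cross-hybridising ones only where no other existed. Tables and plots used Python 3.11.15, pandas 2.3.3 and matplotlib 3.10.9. The fit was tested on simulated data.

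Named were all members, up to 4 called genes per list and comparison with the lowest adjusted p, Ccr6, Ccl20 and Foxp3, and the 3 genes most correlated with any member spanning 1 log2 unit. Hif1a, Stat3, Fosl2, Nfkbiz, Il6st, Il21, Arntl, Clock and the other probe sets of named genes were added after their values were seen. Of the lists, 12 of 13 transcription factors, 8 of 9 IL-17 family, 11 of 12 restraining, 9 of 10 ROR and clock, 6 of 7 T cell, 11 of 12 myeloid and 6 of 8 innate-like lymphocyte genes had probe sets, and the other lists described were complete. Of 5 CD8 and NK markers (of 6), 1 rose and 2 fell in purTGFβ_iTreg against Tconv. In pltTGFβ_iTreg 1 rose and 1 fell. Of 4 B cell markers (of 5) 1 fell and of 6 platelet markers 2 fell in each comparison with Tconv. The shares of all genes were 14.5% higher and 14.9% lower in purTGFβ_iTreg, and 13.9% higher and 14.7% lower in pltTGFβ_iTreg. The members and lists were chosen with earlier results of these data known.

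Alternatives were quantile normalization, centred array medians, leaving out the dimmest 40% of probe sets, robust variances with an intensity trend, a plain ANOVA contrast, only the groups compared, the replicate number as a block, 3 other cutoffs, other probe sets and leaving out each array.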

Additional observations from a re-analysis of the deposited data

How the results depend on the processing

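The rise of Rora in purTGFβ_iTreg over Tconv stayed called under every alternative fit and cutoff on its main probe set, at 0.98 to 1.45 with 1 array left out, and 1 of 4 members stayed called except with no fold cutoff, which called 3. It depended on the probe set: 0.015, 0.41 and 0.12 on 1424035_at, 1455165_at and 1458129_at without a call, -0.42 and -0.36 on 1441085_at and 1458145_at, and 0.47 as the mean of all. In pltTGFβ_iTreg against Tconv, Rora was called with centred medians (0.56), quantile normalization (0.55) and no fold cutoff (0.499), and on 1436326_at (0.69), and its mean over probe sets was 0.14. Leaving out arrays gave 0.28 to 0.75. Called members then numbered 1 under centred medians and quantile normalization, 2 with no fold cutoff, and 0 to 1 with an array left out. In pltTGFβ_iTreg against purTGFβ_iTreg, Rora lost its call under quantile normalization (-0.65), the ANOVA contrast (-0.70, adjusted p = 0.310) and both cutoffs at an adjusted p under 0.05 (-0.70), so that 0 members were called there. Leaving out arrays gave -0.88 to -0.60 and 0 to 1 members called. Other Rora probe sets gave -0.20, -0.46, -0.23 and -0.016 on 1424035_at, 1436325_at, 1455165_at and 1458129_at, 0.13 and 0.052 on 1441085_at and 1458145_at, and -0.33 as a mean. The cause of these changes was not tested. Probe sets called numbered 11640, 11377 and 1464 in the 3 comparisons, 4637, 4304 and 294 when an absolute log2 change above 1 was asked with an adjusted p below 0.05, and 24956, 23946 and 3286 with no fold cutoff. List counts moved by over 1.5 times in 98 of 1344 recomputations.

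Replicate numbers are not stated to pair the arrays. Deviations of same-numbered arrays correlated at -0.12 to 0.09 between purTGFβ_iTreg and Tconv, at -0.10 to 0.09 between pltTGFβ_iTreg and Tconv and at 0.09 to 0.26 between the iTreg groups, where each array correlated best with its own number. With the replicate number as a block Rora kept its log2 changes (adjusted p = 7.31e-04, 0.0605 and 0.0832), the called members stayed 1, 0 and 1, and 11643, 11381 and 1464 probe sets were called. Signal over background could not be judged without detection calls.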
